A study of Drosophila melanogaster with 6 samples.

Results

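The Hippo pathway genes described here are 10 genes of Drosophila melanogaster, chosen by symbol: yki, wts, hpo, sav, mats, ex, Mer, kibra, ft and ds. All 10 symbols were found among the 17806 named genes of the count table, and 9 had enough reads to be tested, the exception being ds. RNA was sequenced from GFP-positive intestinal progenitors, the stem cells and their undifferentiated daughters, sorted from the dissected guts of adult females. The Patr1 group (3 libraries) carries the genotype Patr1, named after the gene of a decapping activator of P-bodies, which are granules in the cytoplasm where decay factors and repressed mRNAs gather. The esgTS group (3 libraries) carries the genotype esgTS and serves as the control. In fly gut work esgTS is the usual name of a temperature-sensitive system that drives transgenes from the esg promoter in progenitors. The labels do not spell out its transgenes, and they do not say how the Patr1 genotype alters the gene. Each library came from 100 flies pooled after 6 days at 29 °C, in both groups. The series asked which RNAs P-bodies regulate.

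The Hippo pathway restrains tissue growth. In flies the kinase Hpo, with its scaffold Sav, phosphorylates the kinase Wts and its cofactor Mats, and Wts in turn phosphorylates the transcriptional coactivator Yki, which then stays out of the nucleus. Unphosphorylated Yki joins the DNA-binding protein Sd and switches on growth and survival genes. Mer, Ex and Kibra feed into the kinases from the apical cell cortex, and the large cadherins Ft and Ds feed into Wts from cell contacts. In the fly midgut the pathway is known to hold back stem cell proliferation, and Yki activity there is known to raise cytokine genes of the upd family.

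Library totals ran from 2035676 to 2958607 reads, and 10885 to 11832 genes were detected per library. The targeted gene went with the labels, as Patr-1 averaged 35.9 ± 3.38 CPM in Patr1 and 220.1 ± 12.2 CPM in esgTS (CPM, the reads of a gene scaled to a common library size; mean ± SD, n = 3 each). The progenitor label was checked by 8 marker genes, whose summed level was 5028 to 5865 CPM in Patr1 and 5496 to 5973 CPM in esgTS. Of these, Dl, N, Sox21a and spdo were higher in Patr1, zfh2, klu and mira were lower, and esg did not pass the test described below. By that test 25.5% of all tested genes were higher and 23.9% lower in Patr1, the background for every count of markers here. Of markers of other cells, 9 enterocyte genes summed to 834 to 885 CPM in Patr1 and 663 to 728 CPM in esgTS, with 8 higher and 1 lower. The lower gene, Myo31DF, made up most of the esgTS sum, at 486.2 ± 29.9 CPM, against 336.2 ± 20.9 CPM in Patr1. The sums thus understate the other 8, and the median log2 fold change of the 9 was 1.18. Enteroendocrine genes (8) summed to 113 to 245 CPM in Patr1 and 188 to 213 CPM in esgTS, with 2 of 6 tested higher and 0 lower. Visceral muscle genes (11), most of whose reads were those of Msp300, summed to 9227 to 11830 CPM in Patr1 and 7004 to 8569 CPM in esgTS. Of 8 tested, 4 (bt, sls, Zasp52 and Msp300) were higher in Patr1 and 1, how, was lower. The widest change was that of bt, which averaged 61.8 ± 10.8 CPM in Patr1 and 6.73 ± 1.68 CPM in esgTS. Mhc, Mlc2 and up did not pass, and Act57B, Tm2 and wupA had too few reads to be tested. Hemocyte genes (8) summed to 322 to 392 CPM in Patr1 and 292 to 330 CPM in esgTS, and the defining markers NimC1, eater and He had 0 reads in all libraries. Of 4 tested hemocyte genes, crq and srp were lower and the collagen genes Col4a1 and vkg higher, Col4a1 at 78.1 ± 21.1 CPM in Patr1 and 0.835 ± 0.273 CPM in esgTS and vkg at 46.7 ± 13.6 CPM in Patr1 and 1.51 ± 0.316 CPM in esgTS (SD, n = 3 each). In the esgTS replicates Col4a1 had 2, 2 and 3 reads and vkg 5, 5 and 3 reads, at or near the 3 reads taken below as the floor of detection. Both collagen genes were thus tested only through their Patr1 reads. Hml had 15 reads in Patr1 and 2 reads in esgTS. Trachea and neuron genes (5) summed to 183 to 211 CPM in Patr1 and 210 to 229 CPM in esgTS, with 1 of 4 tested higher and 2 lower. The part of these other cells in the results below was not tested.

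Of the 9 tested Hippo genes, yki, Mer and ex were lower and hpo was higher in Patr1 than in esgTS, and wts, sav, mats, kibra and ft did not pass the test (quasi-likelihood test of edgeR, adjusted p under 0.05 by Benjamini-Hochberg over 7927 genes). The genotypes differed widely. Of all tested genes 49.4% passed, 25.5% being higher and 23.9% lower in Patr1, so that 4 of 9 (44.4%) is a share near that background. The median log2 fold change of the 9 members, Patr1 over esgTS throughout, was -0.14, against 0.01 for all tested genes. Their median absolute log2 fold change was 0.36, against 0.35 for all tested genes. Patr1 and esgTS libraries did not overlap in 5 of the 9 members, beside 57.3% of all tested genes. Patr1 lay below in 3 (27.7% of all tested genes) and above in 2 (29.6% of all tested genes). In such sorted bulk samples, fewer cells of a type and less RNA per cell cannot be told apart.

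**Figure D1:**
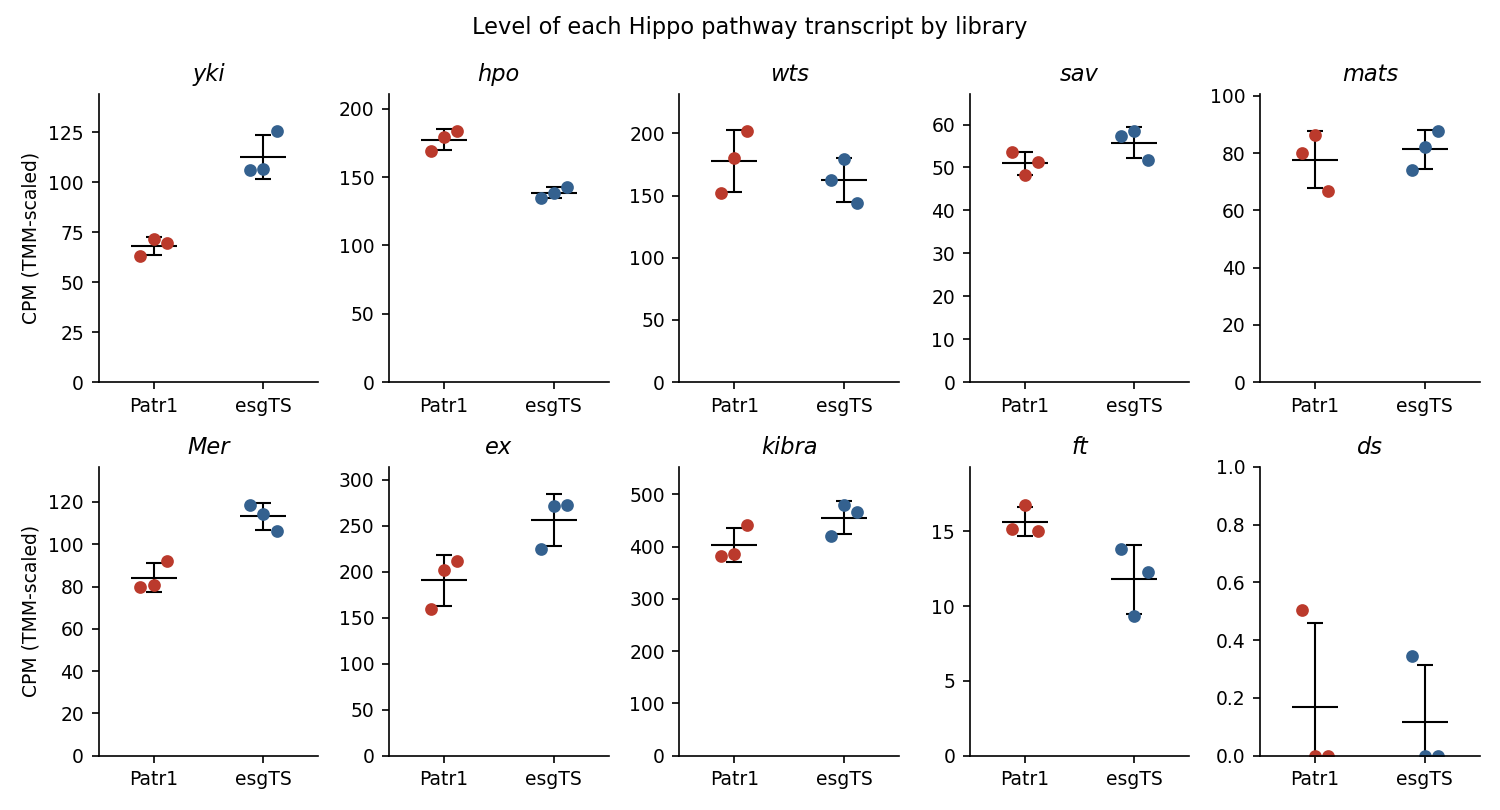
Level of each of the 10 Hippo pathway transcripts (CPM scaled by trimmed mean of M-values, linear axes from 0) in 3 Patr1 libraries (red) and 3 esgTS libraries (blue), with the mean and SD in black. The Patr1 points lie below all esgTS points for yki, Mer and ex and above them for hpo and ft, and ds has at most 1 read in any library.

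The coactivator gene yki showed the largest change among the members. It was measured at 63.1, 71.5 and 69.7 CPM in replicates 1, 2 and 3 of Patr1, against 106.3, 106.6 and 125.6 CPM in the esgTS replicates. The highest Patr1 library was well under the lowest esgTS library, and the spread within each genotype was small beside the gap. The level was 1.65-fold lower in Patr1, at 60.7% of that in esgTS (log2 -0.72 ± 0.10 SE, edgeR adjusted p = 7.82e-05). The 95% confidence interval of the log2 fold change ran from -0.93 to -0.50. Of all tested genes, 976 (12.3%) fell by as much or more. The count behind these levels was 492 reads in Patr1 and 957 reads in esgTS.

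The kinase gene hpo, which heads the core cascade, was the member that rose. It stood at 169.1, 179.7 and 183.6 CPM in the Patr1 replicates, against 134.9, 138.2 and 142.8 CPM in the esgTS replicates. Every Patr1 library was above every esgTS library. The rise was 1.28-fold (log2 0.36 ± 0.07 SE, 95% interval 0.19 to 0.52, edgeR adjusted p = 0.00183), and 24.6% of tested genes rose by as much or more. The gene Rep overlaps hpo on the opposite strand in 4.6% of the exon bases of hpo.

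The other parts of the core kinase module did not pass the test. The gene of the downstream kinase, wts, was at 151.9, 180.0 and 201.7 CPM in the Patr1 replicates and at 162.5, 179.7 and 144.4 CPM in the esgTS replicates, and the groups overlapped. Its log2 fold change was 0.13 with a 95% interval of -0.10 to 0.37 (edgeR adjusted p = 0.333). The scaffold gene sav was at 53.5, 48.3 and 51.2 CPM in Patr1 and at 57.3, 58.5 and 51.7 CPM in esgTS, also overlapping. Its log2 fold change was -0.14 (95% interval -0.37 to 0.09, edgeR adjusted p = 0.293). The Wts cofactor gene mats was at 80.2, 86.3 and 66.7 CPM in Patr1 and at 74.2, 82.0 and 87.7 CPM in esgTS, where the range of 1 genotype covered most of the other. Its log2 fold change was -0.06 (95% interval -0.30 to 0.18, edgeR adjusted p = 0.691). These intervals leave room for changes of up to 1.30-fold upward for wts and down to 0.776-fold for sav and 0.812-fold for mats.

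Among the members, the FERM-domain genes Mer and ex of the apical cortex were lower. Mer, the fly NF2 homologue, was at 79.7, 80.8 and 92.3 CPM in the Patr1 replicates, against 118.7, 114.3 and 106.5 CPM in the esgTS replicates. The groups did not overlap, and the level was 1.34-fold lower in Patr1 (log2 -0.43 ± 0.09 SE, 95% interval -0.62 to -0.23, edgeR adjusted p = 0.00197). The gene ex, which encodes a partner of Mer and is itself known as a target of Yki, was at 159.0, 201.3 and 211.4 CPM in Patr1, against 224.0, 271.7 and 272.7 CPM in esgTS. Here the groups were apart by a small margin, since the highest Patr1 library came close to the lowest esgTS library. The level of ex was also 1.34-fold lower (log2 -0.42 ± 0.11 SE, 95% interval -0.67 to -0.18, edgeR adjusted p = 0.00848). The gene crq overlaps ex on the opposite strand in 6.7% of its exon bases, the largest such share among the members. Of all tested genes, 21.3% fell by as much as Mer or more, and 21.5% by as much as ex or more.

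The third cortical gene, kibra, encodes a WW-domain protein that works with Mer and Ex. Its level was 382.0, 385.8 and 440.5 CPM in Patr1 and 419.7, 480.3 and 465.7 CPM in esgTS, so that the groups overlapped. It did not pass the test, with a log2 fold change of -0.18 (95% interval -0.37 to 0.02, edgeR adjusted p = 0.125). Without Patr1 replicate 3, the highest of its group, the log2 fold change was -0.25 with an edgeR adjusted p of 0.0428, and scaled by library totals alone it was -0.21 with an edgeR adjusted p of 0.0457. Over the 14 alternatives to the analysis the adjusted p of kibra ran from 0.0428 to 0.317.

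**Figure D2:**
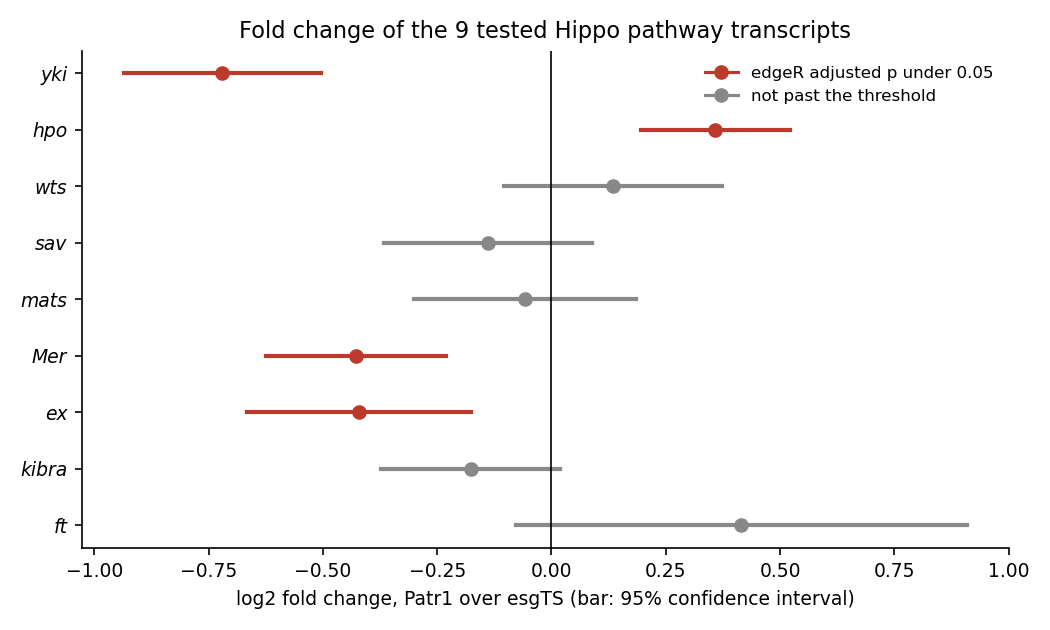
Log2 fold change of the 9 tested members, Patr1 over esgTS (points), with 95% confidence intervals (bars), in red where the edgeR adjusted p was under 0.05. The intervals of yki, Mer and ex lie below 0 and that of hpo above 0, and those of wts, sav, mats, kibra and ft cross 0.

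The cadherin genes had few reads for their length. The atypical cadherin gene ft had 113 reads in Patr1 and 100 reads in esgTS over its 16852 bases. It was at 15.1, 16.8 and 15.0 CPM in the Patr1 replicates, against 13.8, 9.30 and 12.3 CPM in the esgTS replicates. The Patr1 libraries were all above the esgTS libraries, but the difference did not pass the test (log2 0.42, 95% interval -0.08 to 0.91, edgeR adjusted p = 0.149). The gene of its ligand, ds, had 1 read in Patr1 (replicate 1) and 1 read in esgTS (replicate 1) and 0 in the other 4 libraries. With so few reads no fold is given, since 3 reads, taken as the floor of detection, are worth 1.00 to 1.51 CPM per library. This floor is a chosen number of reads and not an error bound for ds.

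Levels can be compared between genes only per length, here as CPM per kb of gene length. In Patr1 the order was kibra at 70.0 ± 5.69, hpo at 63.3 ± 2.69, mats at 45.3 ± 5.85, yki at 44.7 ± 2.92, wts at 30.7 ± 4.30, ex at 28.6 ± 4.17, Mer at 24.8 ± 2.04, sav at 22.8 ± 1.17, ft at 0.928 ± 0.058 and ds at 0.014 ± 0.023 CPM per kb (SD, n = 3). In esgTS it was kibra at 79.2 ± 5.51, yki at 74.0 ± 7.25, hpo at 49.5 ± 1.42, mats at 47.4 ± 3.95, ex at 38.4 ± 4.17, Mer at 33.3 ± 1.82, wts at 28.0 ± 3.04, sav at 24.97 ± 1.62, ft at 0.699 ± 0.136 and ds at 0.009 ± 0.016 CPM per kb (SD, n = 3). The ranges of neighbours in this order overlapped for mats and yki, wts and ex, ex and Mer, and Mer and sav in Patr1, and for kibra and yki, hpo and mats, ex and Mer, and wts and sav in esgTS. Among all tested genes, kibra stood at percentile 83.4 of level per length, yki at 76.6, hpo at 74.7, mats at 67.7, ex at 54.9, wts at 49.7, Mer at 49.4, sav at 42.2 and ft at 0.8.

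The place of yki in that order differed between the genotypes. Per length, yki was below hpo in 3 of 3 Patr1 libraries and above hpo in 3 of 3 esgTS libraries. In CPM not divided by length, yki was below hpo in every library. The change of place thus rests on the gene lengths, 1525 bases for yki and 2804 for hpo. Whether reads spread evenly over these lengths was not tested. The fold change of the ratio between genotypes does not depend on them. The ratio of yki to hpo was 0.686, 0.732 and 0.698 in the Patr1 replicates, against 1.45, 1.42 and 1.62 in the esgTS replicates. A ratio taken within a library does not depend on how libraries are scaled, and this ratio was 2.12-fold lower in Patr1. It joins the fall of yki (log2 -0.72) and the rise of hpo (log2 0.36) already given, so it is not a separate result. The ratio of yki to wts was 1.58, 1.51 and 1.32 in Patr1, against 2.49, 2.26 and 3.31 in esgTS, and was 1.81-fold lower. The ratio of yki to its DNA-binding partner sd was closer, with sd per yki at 0.880 ± 0.103 in Patr1 and 0.811 ± 0.042 in esgTS (SD, n = 3 each). A two-sided exact permutation test of log ratios gave p = 0.1 for yki to hpo and for yki to wts, the smallest p that 3 against 3 libraries allow, and p = 0.4 for sd to yki. Of 14 ratios compared, 11 reached that smallest p, and the Benjamini-Hochberg adjusted value was 0.127 for those (exact permutation test). Reaching it means only that the groups did not overlap, which held for 57.3% of all tested genes taken singly. The ratios share genes and so are not separate results, and the share among ratios of other genes was not computed.

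**Figure D3:**
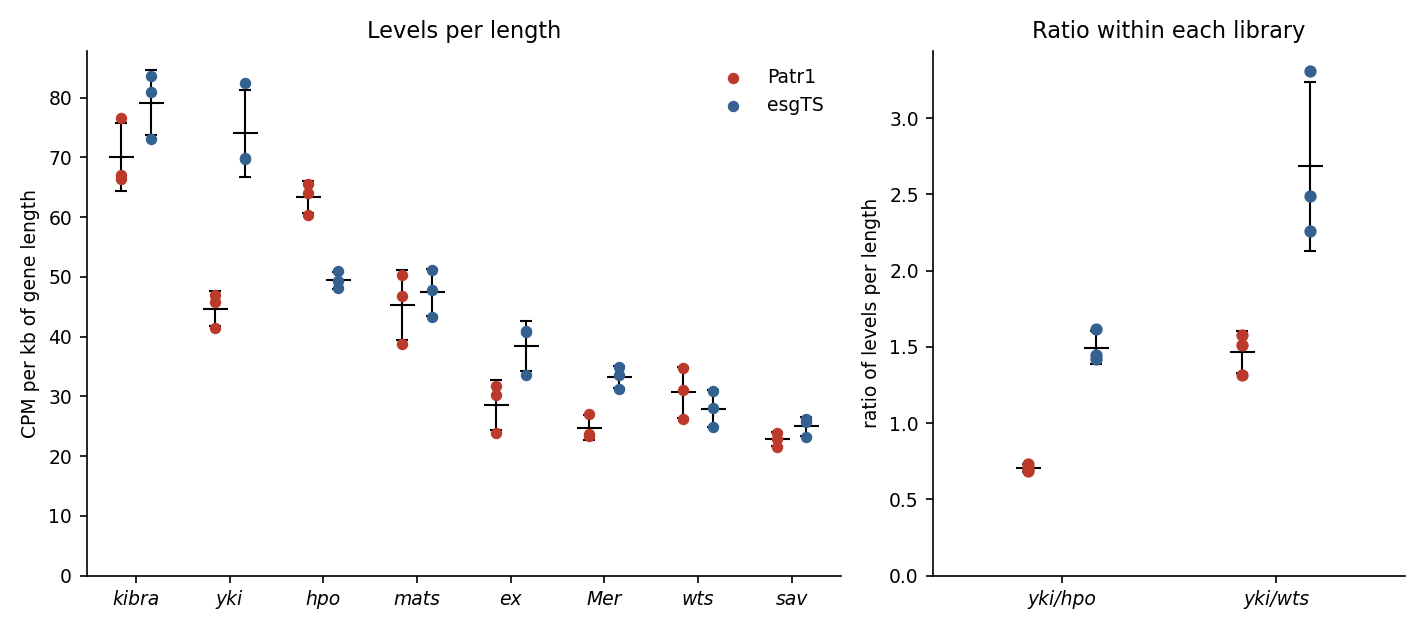
Left, CPM per kb of gene length for the 8 members above 20 CPM per kb; right, the ratio of yki to hpo and of yki to wts within each library (Patr1 red, esgTS blue, mean and SD in black). Per length, the yki points change place with those of hpo between genotypes, and the yki to hpo ratio is under 1 in all 3 Patr1 libraries and over 1 in all 3 esgTS libraries.

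The gene models of the members differ in ways the choice of symbols did not use. The longest annotated 3′ UTR is 98 bases in yki, which fell the most, and 686 bases in hpo, which rose. It is 1135 bases in Mer and 1452 bases in ex, which also fell, beside 1195 bases in kibra, 1350 in wts, 628 in mats and 287 in sav, which did not pass. The members that fell thus include the shortest and the longest 3′ UTR of the 10. The deposited gene lengths equalled the summed exon bases of the BDGP6 annotation in 10 of 10 members.

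**Figure D4:**
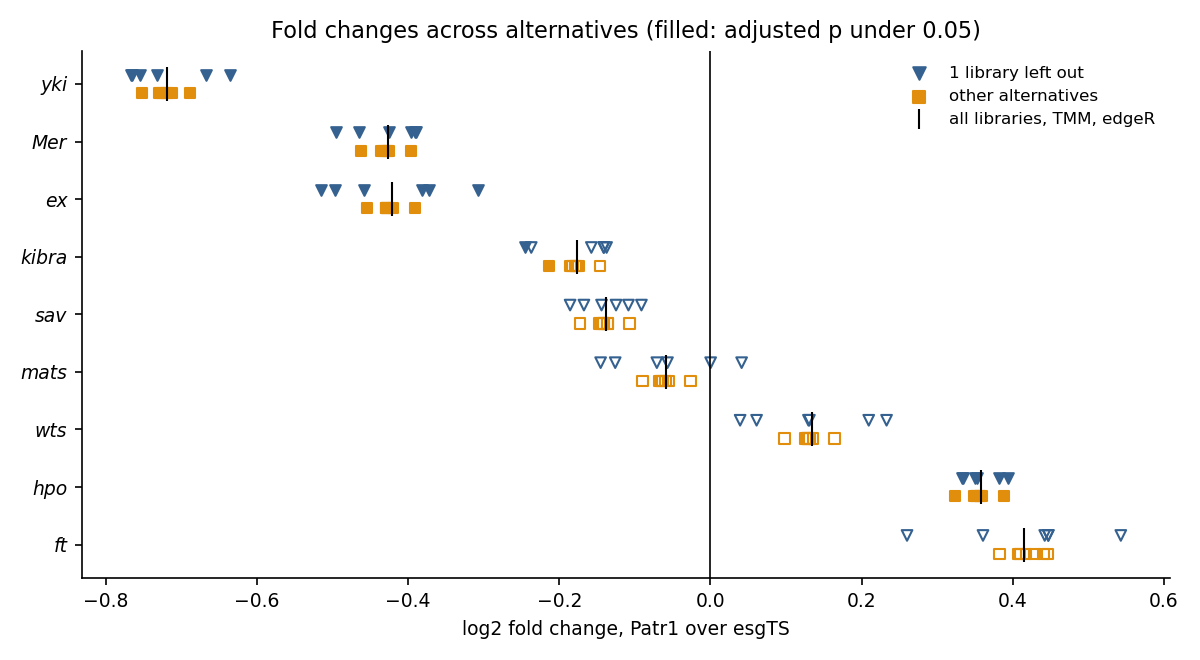
Log2 fold change of the 9 tested members, Patr1 over esgTS, with all libraries (black bar), with 1 library left out (triangles) and under the 8 other alternatives (squares), filled where the adjusted p was under 0.05. All markers of yki, Mer, ex and hpo are filled and on the same side of 0, and those of kibra are filled in 2 of 14.

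The authors' deposited table listed 9 of the 10 members, without ds. In the authors' deposited table the log2 fold changes were -0.74 for yki, 0.34 for hpo, -0.44 for Mer and -0.44 for ex, with DESeq2 adjusted p-values of 5.01e-06, 0.014, 0.00626 and 0.0032. The other 5 had adjusted p-values from 0.133 (kibra) to 0.739 (mats) in the authors' deposited table.

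Other genes of the pathway were read from 5 lists of 53 symbols, of which 43 had enough reads to be tested. Of those, 18 were higher and 6 lower in Patr1 (55.8%), with a median log2 fold change of 0.17. Beside this, 49.4% of all tested genes passed, 25.5% being higher and 23.9% lower.

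Among nuclear partners and cytoplasmic anchors of Yki, 2 of 8 tested genes rose and 2 fell (50.0%, near the 49.4% of all tested genes), with a median log2 fold change of -0.02. The gene sd, whose TEAD-family protein brings Yki to DNA, was at 352.3, 315.9 and 360.6 CPM in Patr1, against 480.4, 527.2 and 568.3 CPM in esgTS. It was 1.53-fold lower in Patr1 with no overlap, a fall of 0.62 ± 0.09 (SE) on the log2 scale, beside 0.72 ± 0.10 for yki (edgeR adjusted p = 1.46e-04 for sd). Ncoa6, a coactivator of Yki, fell to 410.8 ± 71.2 CPM in Patr1, against 583.5 ± 55.7 CPM in esgTS (edgeR adjusted p = 0.00448). The homeodomain gene hth, whose product can also partner Yki, rose to 24.7, 21.2 and 39.7 CPM in Patr1, against 2.76, 2.66 and 0.77 CPM in esgTS (log2 3.72 ± 0.38 SE, edgeR adjusted p = 7.40e-06). It had 201 reads in Patr1 and 18 in esgTS, with 8, 8 and 2 in the esgTS replicates, the last under the floor of 3 reads. So hth passed the filter on low counts only through Patr1, and a rise was the only change it could show. It is among the 2 counted as risen. The gene 14-3-3epsilon, whose protein binds phosphorylated Yki in the cytoplasm, was at 1059 ± 170 CPM in Patr1 and 768.7 ± 49.0 CPM in esgTS (log2 0.46 ± 0.12 SE, edgeR adjusted p = 0.00624). Tgi, a repressor that competes with Yki for Sd, was at 68.6 ± 10.7 CPM in Patr1 and 70.4 ± 7.94 CPM in esgTS (edgeR adjusted p = 0.857), and Wbp2, mask and 14-3-3zeta did not pass either. The genes vg and tsh had too few reads to be tested.

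Of the genes known as Yki targets in flies, 5 of 11 tested rose and 0 fell past the edgeR threshold, with a median log2 fold change of 0.37. This share of 45.5% is near the 49.4% of all tested genes, of which 25.5% were higher and 23.9% lower. The list does not hold all known targets, so the 0 that fell holds for these listed genes alone. The gene ex, for example, also known as a target, was counted among the members and not on this list, and it fell. At an unadjusted p under 0.05, and by DESeq2, the number of listed genes that fell was also 0. The risen genes were the cytokine genes upd1, upd2 and upd3, the growth regulator gene Myc and the cell cycle factor gene E2f1. The level of upd3 was 535.4, 408.0 and 517.3 CPM in Patr1, against 148.4, 167.1 and 196.1 CPM in esgTS (log2 1.51 ± 0.12 SE, edgeR adjusted p = 1.04e-06). That of upd1 was 13.1, 29.8 and 17.2 CPM in Patr1, against 3.80, 3.99 and 1.53 CPM in esgTS (log2 2.68 ± 0.39 SE, edgeR adjusted p = 1.31e-04). The reads of upd1 were 152 in Patr1 and 27 in esgTS, with 11, 12 and 4 in the esgTS replicates. So upd1, among the 5 counted as risen, also passed the filter on low counts through Patr1. For upd1 and upd3 the Patr1 libraries were all higher, whereas upd2 overlapped between genotypes (log2 1.37 ± 0.39 SE, edgeR adjusted p = 0.0121). Myc was higher by log2 0.54 and E2f1 by log2 0.40, with no overlap in either. In Myc, 61.2% of exon bases lie in other genes, which makes its level uncertain. Diap1, the apoptosis inhibitor gene that is the classical Yki target of imaginal discs, was at 298.9 ± 21.3 CPM in Patr1 and 305.8 ± 39.6 CPM in esgTS (edgeR adjusted p = 0.808). The cyclin gene CycE was at 95.7 ± 7.04 CPM in Patr1 and 84.5 ± 14.8 CPM in esgTS (edgeR adjusted p = 0.275). Krn, vn, dally and dlp did not pass. The level of Krn is also uncertain, as 21.3% of its exon bases lie in Ndfip on the same strand. The gene wg had too few reads to be tested, and the ban precursor, which lies wholly within lncRNA:CR43334, was listed with 0 reads in all libraries. These target genes answer to other pathways as well, and their relation to Yki was not measured.

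Upstream of the kinases, 7 of 12 tested inputs rose and 2 fell (75.0%), with a median log2 fold change of 0.28. Beside this, 49.4% of all tested genes passed, 25.5% being higher and 23.9% lower. Without esgTS replicate 1 the number that rose was 4. The Crumbs-binding scaffold gene sdt was at 34.8, 39.4 and 27.8 CPM in Patr1, against 9.66, 9.97 and 8.43 CPM in esgTS, 3.63-fold higher with no overlap (edgeR adjusted p = 1.12e-05). The apical determinant gene crb, whose protein binds Ex, was at 153.0 ± 4.51 CPM in Patr1 and 107.6 ± 10.7 CPM in esgTS (edgeR adjusted p = 4.47e-04), and Patj was at 146.9 ± 20.05 CPM in Patr1 and 96.6 ± 4.39 CPM in esgTS (edgeR adjusted p = 3.62e-04). The kinase gene hppy, which acts on Wts in parallel with Hpo, rose to 448.5 ± 14.4 CPM in Patr1, against 314.2 ± 16.7 CPM in esgTS (edgeR adjusted p = 2.05e-04). The Hpo-activating kinase gene Tao and the genes Pez and Magi rose by log2 0.27 to 0.30. The cell adhesion gene ed fell to 242.7, 210.2 and 278.1 CPM in Patr1, against 367.9, 439.8 and 478.3 CPM in esgTS (log2 -0.82 ± 0.12 SE, edgeR adjusted p = 1.19e-04). Sik3, the gene of a salt-inducible kinase that inhibits Sav, fell to 51.1 ± 9.04 CPM in Patr1, against 119.8 ± 9.67 CPM in esgTS (log2 -1.24 ± 0.12 SE, edgeR adjusted p = 4.14e-06). The kinase genes msn and par-1 and the low-level Sik2 did not pass, and Schip1 had too few reads to be tested.

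Among inhibitors of Hpo or Wts, 2 of 9 rose, 1 fell and 6 did not pass (33.3% called, beside 49.4% of all tested genes), with a median log2 fold change of 0.03. Both risen genes belong to the STRIPAK phosphatase complex that dephosphorylates Hpo. Slmap, whose protein recruits that complex to Hpo, was at 280.3 ± 15.4 CPM in Patr1 and 220.8 ± 7.51 CPM in esgTS (log2 0.35 ± 0.08 SE, edgeR adjusted p = 0.00307). Fgop2 was at 73.4 ± 6.89 CPM in Patr1 and 52.4 ± 4.001 CPM in esgTS (log2 0.48 ± 0.11 SE, edgeR adjusted p = 0.00289). Rassf, whose protein competes with Sav for Hpo, fell to 116.5 ± 4.95 CPM in Patr1, against 159.2 ± 6.61 CPM in esgTS (log2 -0.45 ± 0.08 SE, edgeR adjusted p = 4.81e-04). The STRIPAK genes Cka, Strip, Mob4, mts and Ccm3 and the Wts inhibitor gene jub did not pass.

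Of 8 further genes of the Fat and Dachsous branch, d, fj, Dlish, lft and Fbxl7 had too few reads to be tested. The gene d, which encodes the atypical myosin Dachs, had 10 reads in Patr1 and 14 reads in esgTS, and Fbxl7 had 13 reads in Patr1 and 2 reads in esgTS. The 3 tested genes, app, dco and Zyx, all passed, beside 49.4% of all tested genes, and they also serve elsewhere in the cell. The palmitoyltransferase gene app rose to 255.3 ± 17.8 CPM in Patr1, against 202.8 ± 8.88 CPM in esgTS (edgeR adjusted p = 0.00498). The casein kinase gene dco rose to 326.5 ± 4.24 CPM in Patr1, against 276.8 ± 22.1 CPM in esgTS (edgeR adjusted p = 0.03), and Zyx fell to 149.1 ± 20.4 CPM in Patr1, against 179.7 ± 11.6 CPM in esgTS (edgeR adjusted p = 0.0407). Neither call held throughout, since over the 14 alternatives dco was called in 9, with adjusted p from 0.0176 to 0.134, and Zyx in 8, with adjusted p from 0.00924 to 0.15. Leaving out Patr1 replicate 2, esgTS replicate 1 or esgTS replicate 3 ended the call of dco, and leaving out Patr1 replicate 2 or 3 or esgTS replicate 2 or 3 ended that of Zyx. Without Patr1 replicate 3 the fall of Zyx was 0.17 on the log2 scale, against 0.27 with all libraries, and its adjusted p was 0.15.

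**Figure D5:**
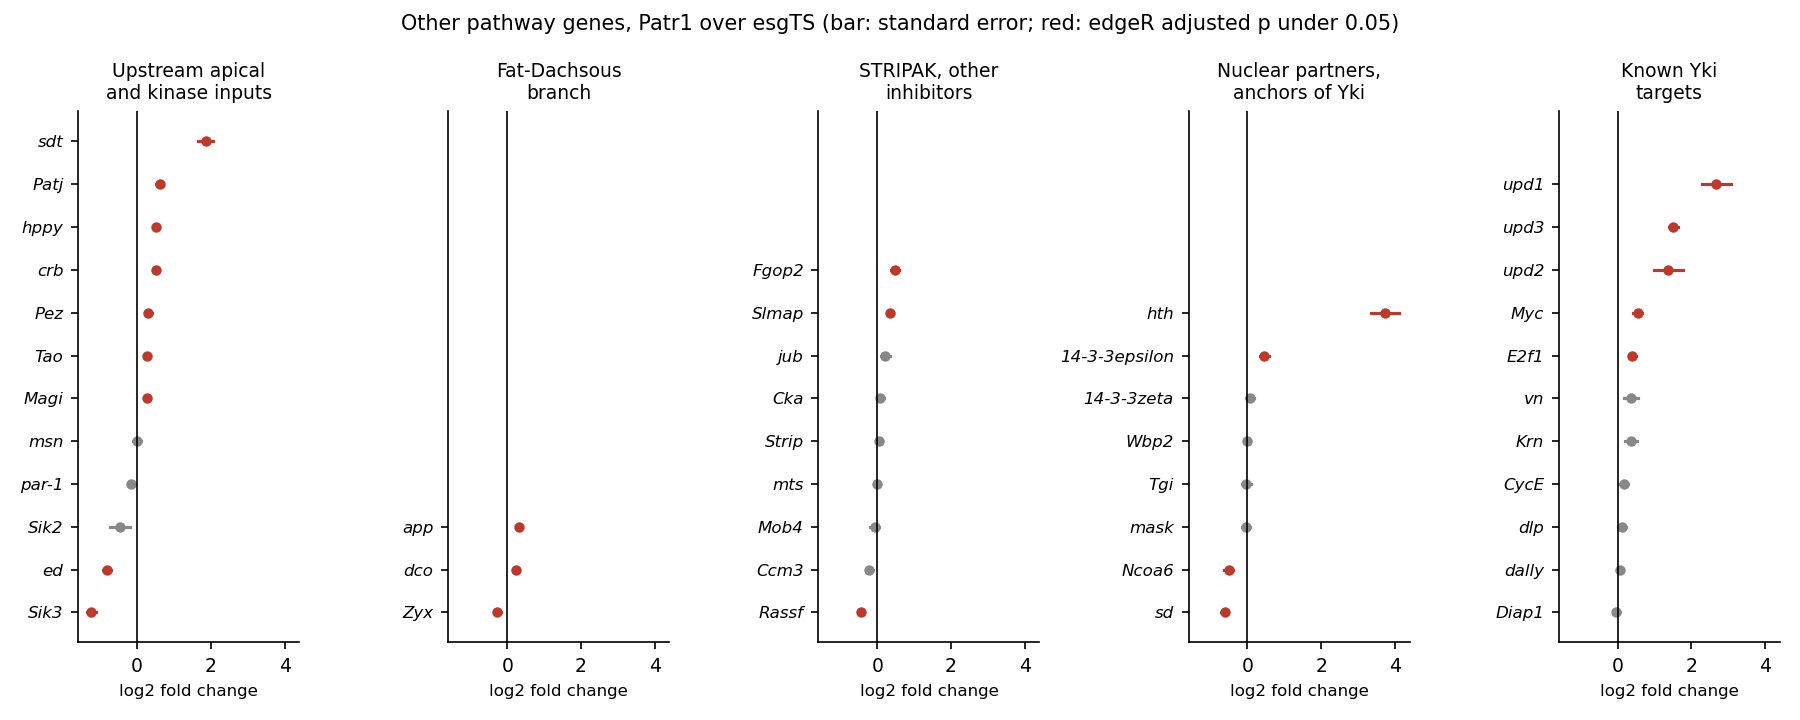
Log2 fold change of the 43 tested genes of the 5 other lists, Patr1 over esgTS (points), with the standard error (bars), in red where the edgeR adjusted p was under 0.05. The widest changes are those of hth, upd1 and sdt upward and of Sik3 and ed downward, and most STRIPAK genes lie near 0. The genes hth and upd1 passed the filter on low counts through Patr1.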

How the data were processed

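The authors' deposited count table held raw counts of reads per gene with a gene length. The submitters' processing notes name DESeq2, featureCounts of Subread 2.0.0, STAR 2.7.3a, cutadapt 2.9 and SAMtools 1.10. Not given in the sources used here were their order, their settings, the build, the gene annotation and the strandedness of counting, so overlapping genes may share reads. The authors' deposited comparison table holds normalized values (a signal, each a raw count scaled by a constant of its library, as tested), log2 fold changes, Wald statistics (a score) and p-values, per the file headers.

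Patr1 was compared with esgTS by edgeR 4.0.16 (R 4.3.3) on the counts, with TMM scaling (trimmed mean of M-values), the default filter on low counts by group, the quasi-likelihood test and Benjamini-Hochberg adjustment over all tested genes at 0.05. A gene low in 1 genotype could pass that filter through the other alone, and then only as higher in that other. CPM use TMM-scaled library sizes. The SE is the size of the log2 fold change divided by the root of the F statistic. The alternatives were DESeq2 1.42.0, limma 3.58.1 (voom), other scalings and filters, a replicate block and leaving out each library. The scripts were checked on simulated data. Exon overlaps and UTR lengths came from the BDGP6 annotation, and a level was called uncertain where over 20% of exon bases overlap. Plots and the other tables used matplotlib 3.10.9, pandas 2.3.3 and SciPy 1.17.1 in Python 3.11.15. A row with no gene name, at most 0.00296% of reads, was left out.

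Within a genotype, pairs of libraries varied beyond counting noise, at a chi-square of 2.45 to 4.34 per degree of freedom. The labels number replicates without saying whether they were collected apart, so p-values measure the spread between these samples, which may be technical. The members and lists were chosen with earlier results of these data known. Values are given for the 10 members, Patr-1 and, in each other list, at most 2 called genes per direction, those of smallest p. Other list genes given with values were picked after those were seen.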

Additional observations from a re-analysis of the deposited data

Results flagged for a closer look

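The row with no gene name, which entered no comparison, took 0.00226%, 0.00283% and 0.00296% of reads in Patr1 replicates 1, 2 and 3, and at most 3.38e-05% in the esgTS libraries. Its content was not given in the sources used here.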

How the results depend on the processing

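Under all 14 alternatives yki, Mer and ex stayed lower and hpo higher past the threshold. Their log2 fold changes ran from -0.77 to -0.64 (yki), -0.50 to -0.39 (Mer), -0.52 to -0.31 (ex) and 0.32 to 0.39 (hpo). The members called were 1 higher and 3 lower, or 4 lower with kibra, as given above. The genes wts, sav, mats and ft passed in none of the 14, and mats was above 0 in 2 of them (log2 0.04 and 0.00). Over all genes, leaving out 1 library gave 1675 to 2072 calls higher and 1583 to 1919 lower in Patr1, and DESeq2 gave 1562 and 1510, against 2018 and 1896. Over the 5 other lists the calls ran from 15 to 21 higher and from 5 to 7 lower. Among the single lists, the upstream inputs had 4 rises without esgTS replicate 1, and the counts of the Fat and Dachsous branch moved with dco and Zyx. Scaling moved the median log2 fold change of all genes by under 0.1 (it was -0.03 to 0.04).

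Replicate numbers showed no clear pairing of the libraries, though 3 libraries per genotype are too few to decide whether they were collected in pairs. Deviations of same-numbered libraries correlated at 0.05, 0.20 and -0.04, and Patr1 replicate 1 correlated best with esgTS replicate 3 (0.21). With the replicate block 1999 genes were higher and 1902 lower, and 1 member was higher and 3 were lower.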
